A study of Homo sapiens with 14 samples.

Results

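RS4;11 is a human B-cell precursor acute lymphoblastic leukemia line with a rearranged KMT2A gene, and the arrays of this line before dexamethasone are described here. The series holds 14 arrays of RS4;11 cells, and the members are the 4 titled as untreated. The others hold 5 arrays after 8 h and 5 after 24 h of dexamethasone, a synthetic glucocorticoid, at 10 nM. All cells, untreated ones included, had been kept for 48 h in serum stripped of hormones. The line is 1 culture line of a single leukemia, so the arrays show this line and not the disease, and neither the labels nor the methods state that replicates were separate cultures. Where they were not, a p-value rests on technical spread alone.

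The arrays carry short DNA probes grouped into probe sets, each read as 1 log2 value after the authors' normalization by the RMA method. Of 22277 probe sets, 19070 name exactly 1 gene, and they cover 11963 genes. The level of a gene is the value of its probe set with the highest mean over the untreated arrays. To say that a gene was expressed, its level was set against a background range made of 149 genes known for other organs, such as albumin of the liver or the crystallins of the lens. The limit was the 95th percentile of these genes on each array, and it lay between 5.97 and 6.03. A gene above the limit on all 4 arrays is called above the background range, one under it on all 4 is called within the range, and any other is called intermediate. With the limit at the 99th percentile, which lay between 6.94 and 7.07, 21 of 210 key genes of the lists were no longer above it. Probe sets differ in how well they bind. Each call sets a gene beside the probe sets of other genes, so it depends on binding as well as on RNA. Levels of different genes, ranks included, are therefore given as a description.

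Precursor B cells build their antigen receptor in steps. The heavy chain is rearranged first and is carried to the surface by the surrogate light chain, made of VPREB1 and IGLL1, with CD79A and CD79B as the signaling pair. PAX5 holds the cell to the B lineage. In leukemias with a KMT2A rearrangement, the fusion protein keeps genes such as MEIS1, a homeobox cofactor of HOX proteins, and FLT3, a receptor tyrosine kinase, switched on.

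The RNA matched the label. VPREB1 read 12.93, 12.93, 12.90 and 12.77 on untreated arrays 1 to 4, and IGLL1 read 12.86, 12.82, 12.67 and 12.60. CD79A read 9.66, 9.64, 9.70 and 9.56. These genes of the pre-B cell receptor were far above the limit on every array. PAX5 read 12.67, 12.75, 12.75 and 12.63. MEIS1 read 10.73, 10.74, 11.10 and 11.01, and FLT3 read 11.05, 11.01, 10.98 and 11.04. All 6 markers were above the background range, with SDs from 0.03 for FLT3 to 0.19 for MEIS1 (n = 4). MEIS1 was lower on arrays 1 and 2 than on arrays 3 and 4, and IGLL1 was higher there. PAX5 has a second probe set, and it had a mean of 4.76, within the range.

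To show the DNA from which the pre-B cell receptor genes above start, the 250 bases before the RefSeq start of VPREB1, IGLL1 and CD79A are printed for GRCh38.p14, in the direction of transcription. VPREB1 lies on the plus strand at chr22:22244536-22244785, IGLL1 on the minus strand at chr22:23580291-23580540, and CD79A on the plus strand at chr19:41877029-41877278. Capitals mark matches to CAGGTG, on either strand, the E-box that E proteins such as the product of TCF3 can bind.
VPREB1: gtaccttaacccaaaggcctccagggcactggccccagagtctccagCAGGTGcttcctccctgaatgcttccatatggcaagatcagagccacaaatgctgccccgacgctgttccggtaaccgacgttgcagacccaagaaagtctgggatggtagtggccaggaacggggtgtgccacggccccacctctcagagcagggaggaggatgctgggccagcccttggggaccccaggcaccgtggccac
IGLL1: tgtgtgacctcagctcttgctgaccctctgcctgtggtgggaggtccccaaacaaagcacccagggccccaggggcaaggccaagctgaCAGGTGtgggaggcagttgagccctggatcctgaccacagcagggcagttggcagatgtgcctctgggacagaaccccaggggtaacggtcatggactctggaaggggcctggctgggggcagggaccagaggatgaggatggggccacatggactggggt
CD79A: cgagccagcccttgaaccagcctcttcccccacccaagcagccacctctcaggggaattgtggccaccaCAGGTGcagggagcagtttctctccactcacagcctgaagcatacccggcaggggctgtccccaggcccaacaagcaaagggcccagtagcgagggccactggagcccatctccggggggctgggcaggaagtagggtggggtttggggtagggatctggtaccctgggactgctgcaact
Each window holds 1 match, which begins 203, 161 and 181 bases before the start of VPREB1, IGLL1 and CD79A. Of 35116 RefSeq promoter windows of this length, 17.5% hold a match. The FLT3 window also holds 1, while those of PAX5 and MEIS1 hold none. CCGGAAGT, a motif of ETS factors, is in 3.42% of all windows and in that of MEIS1 alone among the markers. A match is a run of letters and not a measured binding site.

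Over all genes, 6594 were above the background range, or 55.1%, while 402 were intermediate and 4967 were within it. The counts of each list given below are to be read against this share. Of the 149 genes of other organs, 5 were above, a share of 3.36% that the limit itself sets. PRL, the pituitary hormone prolactin, stood out among these 5 with 12.78, 12.81, 12.67 and 12.60 on untreated arrays 1 to 4, and NRL, a photoreceptor transcription factor, followed with a mean of 7.52 ± 0.19. SFTPB (6.47), GRIN1 (6.28) and AQP2 (6.14) were near the limit. On the 10 treated arrays PRL read 12.22 to 12.57. All 34 housekeeping genes with a probe set were above the range. The 20 genes with the highest means held EEF1A1, the elongation factor of translation (14.41 ± 0.02, SD, n = 4), PABPC1, TPT1 and 17 ribosomal protein genes, led by RPL41 (14.41) and RPS6 (14.40), and the lowest of the 20 was RPS27 (14.13).

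**Figure D1:**
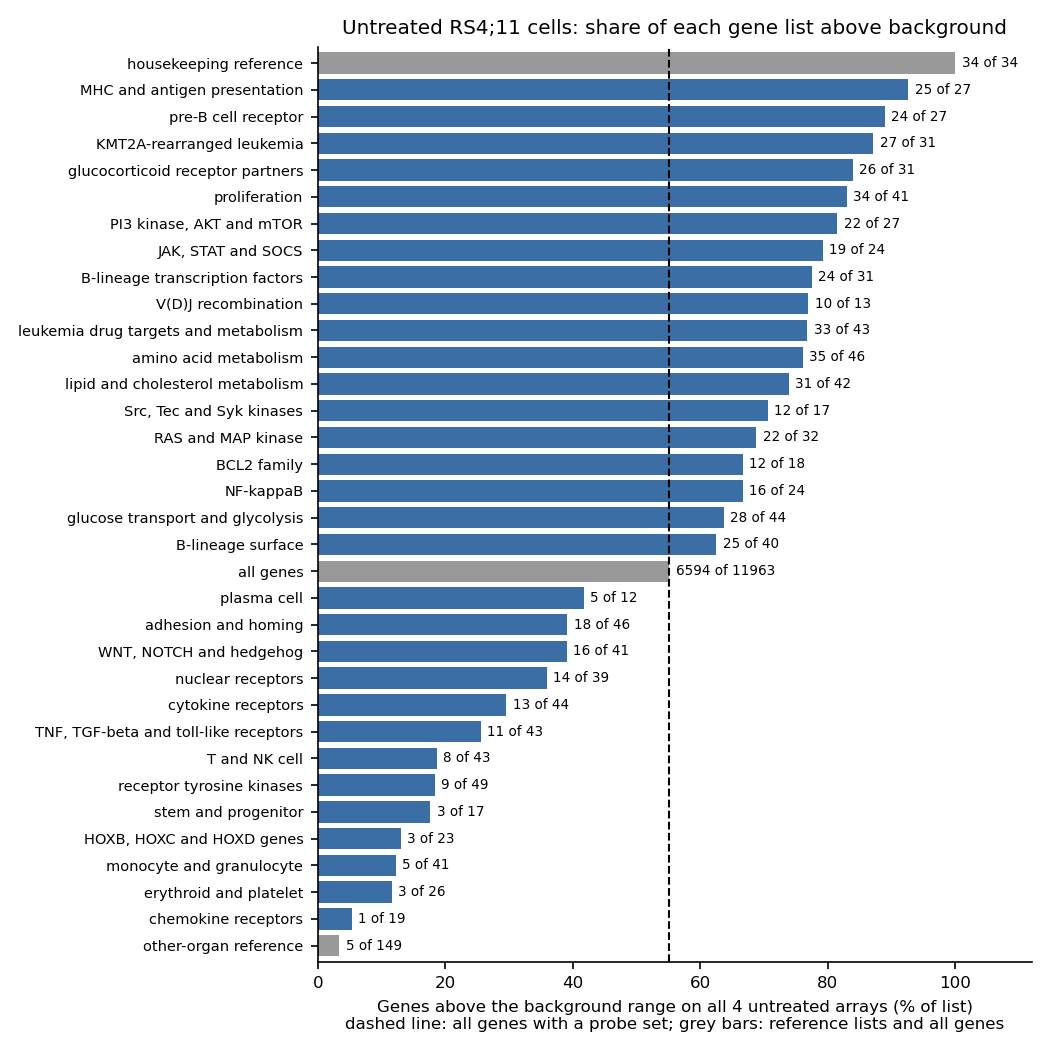
Bars give the share of each gene list, in percent, that was above the background range on all 4 untreated arrays, with the count of members beside each bar. The dashed line marks the 55.1% of all genes, and the bars run from 5 of 149 genes of other organs to all 34 housekeeping genes.

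The days named in the sample labels set the untreated arrays apart, and this bears on every level given below. Arrays 1 and 2 carry one day, called day 1, and arrays 3 and 4 carry days 2 and 3. The day numbers are names and follow no order in time. No gene differed by over 1 log2 between arrays 1 and 2, and 8 did between arrays 3 and 4. Between an array of day 1 and one of days 2 and 3, 60 to 74 genes did. Correlations across genes, which are not independent replicates, were all between r = 0.995 and 0.998. The typical spread was small, with a median SD of 0.12 over genes above the background range. Across all 14 arrays, limma's F-test for the run, with the group in the model, called 2160 genes at an adjusted p below 0.05, which is 18.1% of the genes tested.

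Most of the 10 expressed genes with the largest SD differed between the arrays of day 1 and the others. NLGN4X, a synaptic adhesion gene, read 9.60, 9.68, 8.56 and 6.91 on untreated arrays 1 to 4. CTSZ, a lysosomal protease, read 8.96, 9.05, 7.41 and 7.14. TAF15, an RNA-binding protein, read 10.11, 10.07, 8.30 and 8.53. Each was highest on the arrays of day 1. HNRNPUL2 and PPP3R1, a calcineurin subunit, were also higher there, by 1.67 and 1.48, as was ASS1, which makes argininosuccinate for arginine synthesis, by 1.55. H1-2, a linker histone, and GOLIM4, a Golgi protein, were lower on day 1, by differences of −1.56 and −1.45. BHLHE41, a clock repressor, stood apart on array 4 alone, at 6.72 against 8.63 to 8.69 on the others. SLC7A11, the cystine transporter, read 9.43, 9.40, 7.38 and 8.27.

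The 10 treated arrays, which did not choose these genes, were then compared by day. With the treatment group in a limma model, 9 of the 10 genes differed between day 1 and the other days at an adjusted p below 0.05, beside 3589 of 11963 genes, or 30.0%. CTSZ differed by 1.72 (SE 0.07, adjusted p = 1.38e-07 from limma), TAF15 by 1.83 (SE 0.07, adjusted p = 1.38e-07) and H1-2 by −1.31 (SE 0.19, adjusted p = 5.25e-04), with the sign seen in untreated cells. SLC7A11 was the exception, with a difference of −0.12 (SE 0.11, adjusted p = 0.443). The model took the 8 h and 24 h arrays of a run as separate samples, though residuals of arrays of the same run correlate. Day 1 holds runs 1 and 2 alone, so these p-values overstate the evidence. The treated arrays also share runs with the untreated arrays that chose the genes, so the match in sign is not independent of that choice. Control probe sets at the 5' end of ACTB read 11.77, 11.54, 10.56 and 11.08 on untreated arrays 1 to 4. At its 3' end the values were 13.01, 12.86, 13.25 and 13.23. For GAPDH, the 5' set read 13.09, 12.98, 12.55 and 12.69 and the 3' set 13.55, 13.55, 13.50 and 13.49. The 5' sets were thus lower on arrays 3 and 4, and a part of RNA quality in the day differences was not tested. What set the days apart was not tested either.

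**Figure D2:**
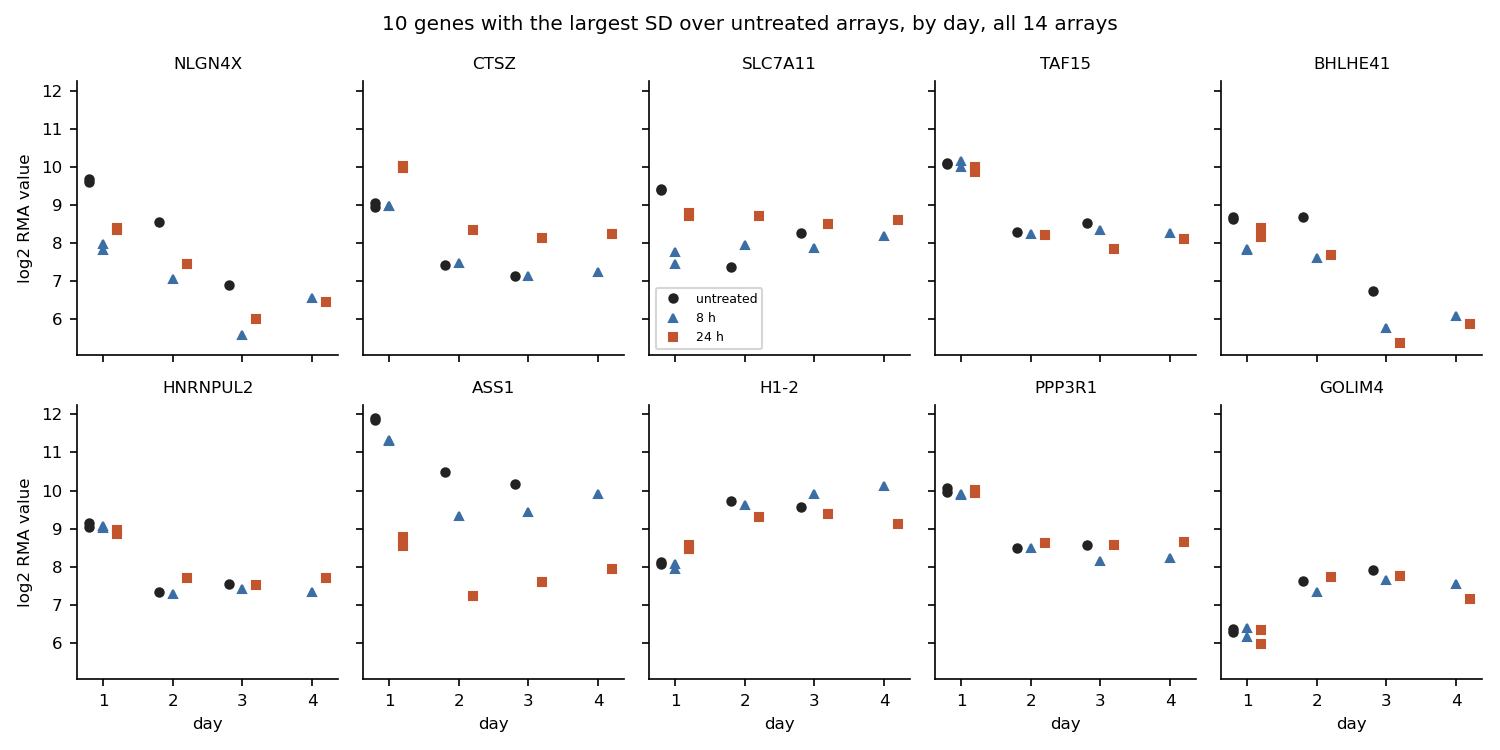
Points are single arrays, with log2 values on the vertical axis and the day of the label on the horizontal axis, for the 10 expressed genes with the largest SD over untreated arrays. Untreated arrays (circles), 8 h arrays (triangles) and 24 h arrays (squares) of day 1 sit apart from those of the other days for TAF15, HNRNPUL2, PPP3R1, H1-2 and GOLIM4.

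Transcripts of several B-cell surface markers were high, while those of CD10 and CD20 were not above the background range. Of 40 B-lineage surface genes with a probe set, 25 were above the background range (62.5%), near the 55.1% of all genes. CD9, a tetraspanin, had a mean of 13.34 ± 0.06, and CD24, a glycosylated surface protein of precursor B cells, one of 12.54. CD22, an inhibitory receptor and target of antibody drugs, read 9.38, 9.40, 9.33 and 9.21, CD38, an ectoenzyme, had a mean of 9.68 and CD79B one of 9.57.

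MME, which encodes CD10, the common antigen of lymphoblastic leukemia, read 5.57, 5.52, 5.37 and 5.42, below the limit on every array. MS4A1, which encodes CD20 of mature B cells, read 3.92, 3.69, 3.87 and 3.85, also within the range. CD34, the stem and progenitor antigen, read 5.75, 5.82, 6.11 and 5.78 and passed the limit on array 3 alone. The second probe sets of MME and MS4A1 were within the range as well, at 3.18 and 3.75.

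Among B-lineage transcription factors, 24 of 31 genes were above the background range. LEF1, which acts with beta-catenin in lymphoid precursors, had a mean of 13.17 ± 0.09, and TCF3, an E protein of early B cells, one of 11.89. IKZF1, the Ikaros gene, had a mean of 10.97, FOXO1, which drives RAG genes, one of 8.53, IRF4, which acts in light chain rearrangement, one of 9.89 and SPIB, an ETS factor, one of 8.27. The genes within the range included SPI1, the ETS factor PU.1, which was named after its values were seen and read 4.56, 4.30, 4.63 and 4.42. The paper mapped where PU.1 binds DNA in this line, in unstimulated cells too. The level of SPI1 therefore does not show that PU.1 was absent. For EBF1 and RUNX1, no probe set names 1 gene alone, and they were not analysed here.

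The pre-B cell receptor pathway was expressed nearly in full, with 24 of 27 genes above the background range. IGHM, the mu heavy chain, read 11.05, 11.02, 11.03 and 10.65, lowest on array 4. The kinases SYK and BTK had means of 10.01 and 10.48. BLNK, the adaptor between them and the calcium signal, read 6.66, 6.97, 7.08 and 7.57, above the limit on all arrays and lowest on array 1. The 3 members within the range were VAV2 (5.75), PRKCB (5.60) and IGKC (5.67), the kappa light chain constant gene. Immunoglobulin probe sets can bind related genes, so their levels are uncertain.

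Recombination genes were on, with 10 of 13 above the background range and the other 3 intermediate. RAG1 read 9.29, 9.26, 9.41 and 9.47, and RAG2 read 8.33, 8.21, 8.19 and 8.08, and together they cut the receptor genes. DNTT, the terminal transferase that adds bases at the joints, read 5.95, 5.90, 6.01 and 7.29. Only array 4 passed the limit for DNTT. On the treated arrays, DNTT read 4.50 to 4.67 in runs 1 to 3 at 8 h and 5.51 and 5.56 in runs 5 and 4, and 3.96 to 4.29 against 5.13 and 4.88 at 24 h. The 4th untreated array belongs to run 4, and run 5 holds no untreated array.

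Genes tied to KMT2A-rearranged leukemia were expressed in 27 of 31 cases. PBX3, a partner of MEIS1, had a mean of 11.22 and LGALS1, the galectin-1 gene, one of 10.20. CSPG4, which encodes the NG2 antigen used to find such leukemias, read 8.49, 8.47, 8.93 and 8.98, lower on the arrays of day 1. KMT2A itself had a mean of 8.77 and AFF1, its fusion partner in the t(4;11) translocation, one of 11.68. A probe set reads any transcript with its target, so fused and normal transcripts cannot be told apart. The members within the range were RUNX2 (5.03), CCNA1 (4.39), DOT1L (4.23) and HOXA2 (4.39). The other HOXA genes of the list, HOXA9 among them, were not analysed here, since no probe set names them alone.

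Outside the A cluster, HOX genes were mostly within the background range, with 20 of 23 within the range. HOXB2 (3.47), HOXB7 (4.36) and HOXD4 (3.58) lay among these. The 3 genes above the range were all of the C cluster. HOXC4 read 9.05, 9.08, 9.07 and 8.85, HOXC6 read 9.65, 9.68, 9.68 and 9.59, and HOXC11, at 6.05 to 6.18, stood just past the limit. TWIST1, a mesenchymal transcription factor and member of the KMT2A list that was named after its values were seen, read 11.00, 11.08, 11.19 and 11.05.

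Of 17 stem and progenitor genes, 3 were above the range, while 6 were with the limit at the 90th percentile and 5 with the mean over probe sets. PROM1, which encodes CD133 and is a known target of KMT2A fusions, read 12.52, 12.51, 12.56 and 12.59, EVI2A had a mean of 10.66 and ENG one of 7.49. KIT, the stem cell factor receptor, had a mean of 3.70 ± 0.20 and GATA2, a stem cell transcription factor, one of 5.77 and both were within the range.

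**Figure D3:**
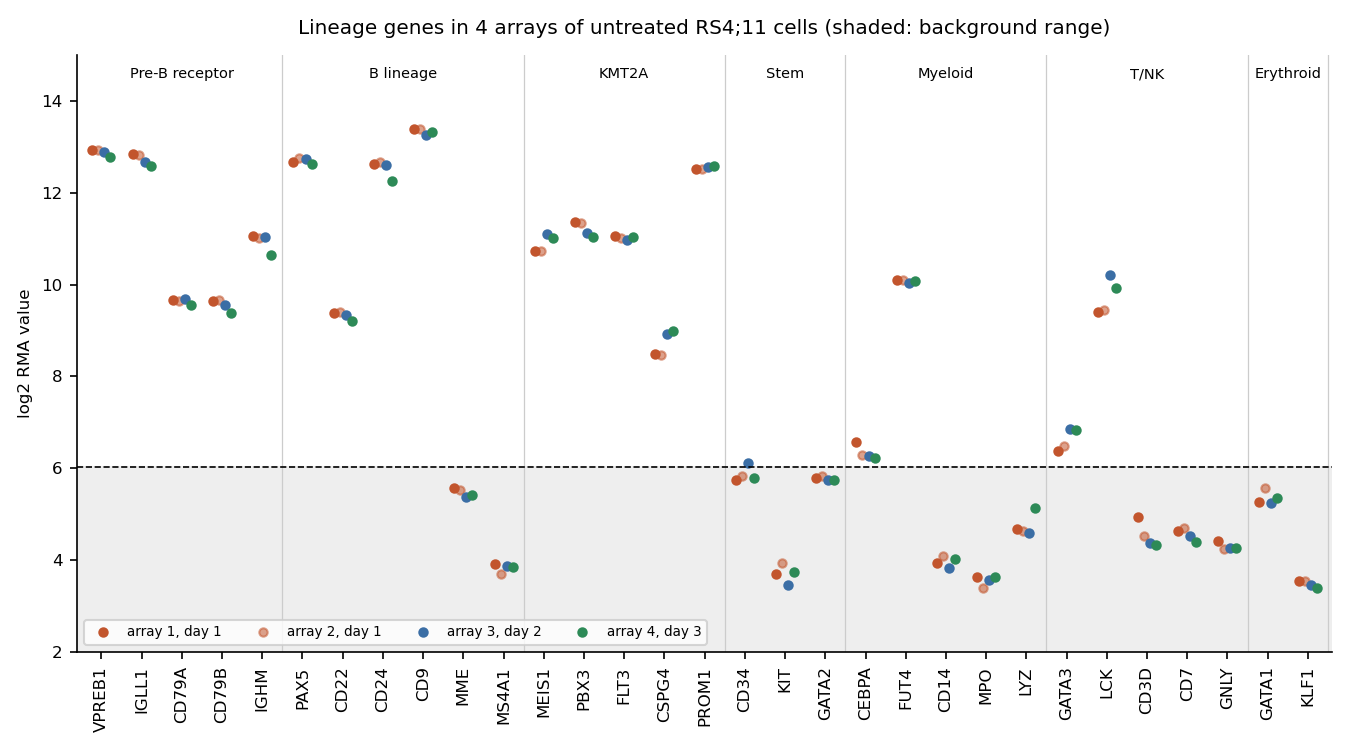
Points are the log2 values of single untreated arrays for genes of 7 lineage groups, in the order of arrays 1 to 4 and colored by day, with the background range shaded. The pre-B, PAX5 and KMT2A genes lie above the range on all 4 arrays, while MME, MS4A1, KIT, CD14, MPO and CD3D lie within it on all 4.

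Markers of other blood cells were mostly within the background range, and the exceptions were few enough to name. Of 41 monocyte and granulocyte genes, 5 were above the range, or 3 with the limit at the 99th percentile, and 34 were within it, among them MPO, the granule peroxidase (3.55 ± 0.12), CD14, the endotoxin coreceptor (3.96 ± 0.11), LYZ (4.76), CSF1R (5.49), CSF3R (3.87) and ITGAM (4.93). FUT4, which makes the CD15 sugar, read 10.11, 10.10, 10.03 and 10.08, AIF1 had a mean of 10.22, CEBPB one of 9.77 and SIGLEC7 one of 6.29. CEBPA, the myeloid regulator, read 6.56, 6.29, 6.26 and 6.23, just past the limit.

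Of 43 T and NK cell genes, 35 were within the range and 8 above, or 4 with the limit at the 99th percentile. They held CD3D (4.54), CD3E (4.57), CD247 (3.80), CD2 (3.72), CD7 (4.56), CD8A (3.86), BCL11B (4.41) and GNLY (4.28). The kinase LCK, which acts beneath the T cell receptor, read 9.40, 9.45, 10.22 and 9.94, lower on the arrays of day 1. ZAP70, the kinase that LCK activates, read 8.93, 8.93, 9.05 and 8.84. NKG7 (8.62), PTCRA (7.33), PRF1 (6.78), KLRF1 (6.54), CD6 (6.39) and GATA3 (6.64) were the other members above the range. GATA3 rests on 1 of 3 probe sets, and with the mean over its probe sets it had a level of 5.26 and was no longer above the range.

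Of 26 erythroid and platelet genes, 3 were above the range, TFR2 (8.35), EPOR (6.86) and GP9 (6.18), and at the 99th percentile 1 was. GATA1 (5.35), KLF1 (3.48), ITGA2B (5.35) and PF4 (5.57) were within it, and HBB (5.88) was intermediate. Plasma cell genes divided, with 5 of 12 above. XBP1, a secretory regulator (10.85), MZB1 (10.31), IRF4, FKBP11 (10.12) and SSR4 (11.27) were above, while SDC1 (4.89), PRDM1 (5.55), JCHAIN (5.32) and TNFRSF17 (4.33), which mark finished plasma cells, were within the range. The part of other cells in these levels was not tested. MPO, CD14, CD3D and KLF1 were within the range on all 4 arrays, while FUT4, AIF1, LCK, ZAP70 and TFR2 of the same lists were above it.

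**Figure D4:**
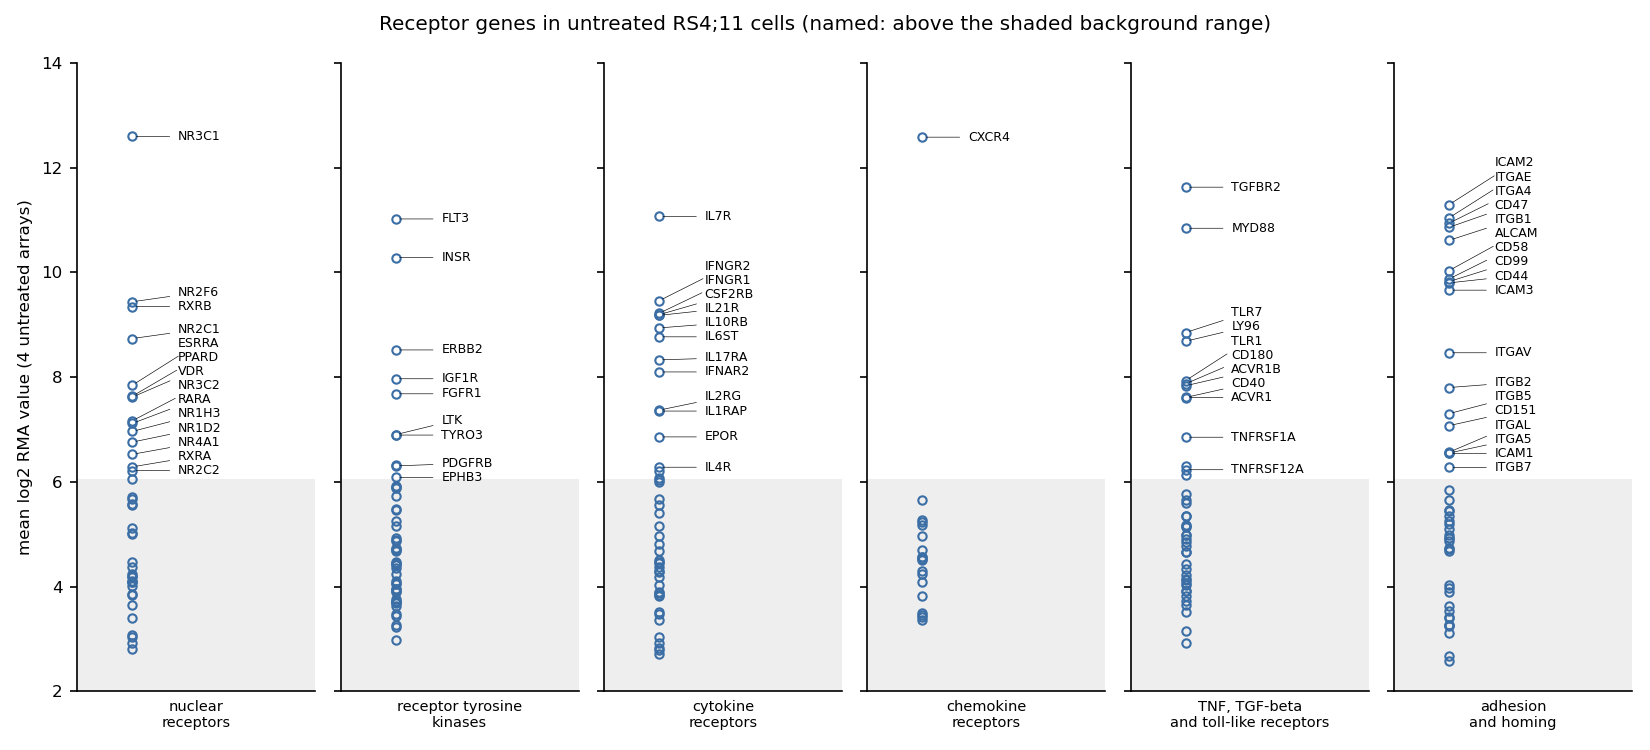
Circles are the mean log2 values of genes over 4 untreated arrays in 6 receptor and adhesion lists, with the background range shaded and the genes above it on all 4 arrays named. CXCR4 is the 1 named chemokine receptor of 19, while 18 of 46 adhesion genes are named.

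In the receptor lists below, and in the adhesion list, smaller shares of genes were above the range than the 55.1% of all genes. These shares ran from 5.26% for chemokine receptors to 39.1% for adhesion genes. RNA levels do not show which receptors the cells use. Of 44 cytokine receptor genes, 13 were above the range. IL7R, the receptor of the main growth factor of precursor B cells, read 11.02, 10.98, 11.10 and 11.19, and IL2RG, its common gamma chain, had a mean of 7.37. CSF2RB, the shared beta chain for IL-3 and GM-CSF, had a mean of 9.19 ± 0.06, while its alpha chains IL3RA (5.56 ± 0.02) and CSF2RA (4.46 ± 0.06) were within the range. IFNGR1 (9.22) and IL4R (6.28) were above, IFNAR1 (6.21) was intermediate, and IL6R (5.41), IL10RA (4.51), IL1R1 (3.51) and IL1R2 (3.47) were within the range.

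Among receptors of the TNF, TGF-beta and toll-like families, 11 of 43 were above. TGFBR2, the ligand-binding TGF-beta receptor, read 11.50, 11.62, 11.87 and 11.52, but TGFBR1, its signaling partner, had a mean of 5.18 and was within the range. TNFRSF1A (6.85) and CD40 (7.61) were above, and FAS (5.76), TNFRSF1B (4.66) and TLR4 (4.15) were within the range. Of 19 chemokine receptor genes, CXCR4, which holds precursor B cells in the marrow, was the only one above, at 12.69, 12.65, 12.63 and 12.35, while 2 were above with the limit at the 90th percentile. CXCR5 (5.24), CCR7 (5.27), CCR2 (4.53) and CXCR3 (5.18) were within the range.

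Adhesion genes above the range numbered 18 of 46. ITGA4 and ITGB1, which form the VLA-4 integrin, had means of 10.94 and 10.61, CD44, the hyaluronan receptor, one of 9.80 and ICAM3 one of 9.66. ITGAL (6.57) and ITGB2 (7.80), which form LFA-1, were also above, and SELPLG (5.85) was within the range. ITGB1 rests on 1 of 5 probe sets, and with the mean over them (4.50) its call was lost.

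Of 49 receptor tyrosine kinase genes, 9 were above, FLT3, INSR (10.28), ERBB2 (8.52), IGF1R (7.97), FGFR1 (7.68), LTK (6.90), TYRO3 (6.89), PDGFRB (6.30) and EPHB3 (6.08). EGFR (5.25), PDGFRA (3.91), MERTK (4.87) and ROR1 (3.96) were within the range. FGFR1 rests on 1 of 6 probe sets, marked for possible cross-hybridization, and with the mean over them (5.56) its call was lost. With the limit at the 90th or the 99th percentile of the reference genes, 14 or 5 of the 49 were above.

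Of 39 nuclear receptor genes, 14 were above the range. NR3C1, the glucocorticoid receptor, read 12.60, 12.57, 12.62 and 12.61, and all 4 of its probe sets were above the limit. NR3C2, the mineralocorticoid receptor, read 7.33, 7.41, 7.11 and 6.81, and VDR, the vitamin D receptor, read 7.58, 7.69, 7.77 and 7.44. RARA (7.12), NR1H3 (6.96) and RXRA (6.29) were above, THRA (6.05) was intermediate, and ESR1 (5.56), PGR (3.08) and PPARG (4.21) were within the range. The RARA probe set is marked for possible cross-hybridization. Other probe sets of RARA (5.92, 5.12 and 5.01) and RXRA (5.66) were not above the limit on all 4 arrays. At the 99th percentile 8 of the 39 were above.

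A list of 31 genes held partners of the glucocorticoid receptor, enzymes that convert glucocorticoids and a drug efflux pump. Of these, 26 were above the range before any drug (83.9%, beside 55.1% of all genes). HSP90AA1 and HSP90AB1, the chaperones that hold the receptor ready for hormone, had means of 13.68 and 12.66, FKBP4, a co-chaperone, one of 7.05 and NCOA2, a coactivator, one of 11.27. The 5 genes within the range were FKBP5, the co-chaperone gene that the receptor itself induces (5.29, 5.18, 4.84 and 5.04), FKBP8 (5.63), ABCB1, a drug efflux pump (3.06), and HSD11B1 (3.86) and HSD11B2 (3.74), which convert glucocorticoids.

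Beneath the receptors, most kinases of lymphoid signaling were above the range, as were 55.1% of all genes. Of 17 Src, Tec and Syk family genes, 12 were above (70.6%), with LYN (10.99), FYN (9.39) and BLK (8.20) beside those already named. JAK, STAT and SOCS genes were above in 19 of 24 cases (79.2%). The means were 10.70 for JAK1, 8.85 for STAT5B, 7.16 for STAT5A, 6.90 for JAK2, 8.34 for SOCS2 and 6.29 for CISH. The CISH probe set is marked for possible cross-hybridization. JAK3 (5.63) was within the range. The PI3 kinase list had 22 of 27 above (81.5%). It held the lymphoid catalytic subunits PIK3CD (11.41) and PIK3CG (9.17), the regulatory subunit PIK3R1 (10.53), AKT1 (7.75), MTOR (8.27) and TSC2 (6.77).

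RAS and MAP kinase genes were above in 22 of 32 cases (68.8%, beside 55.1% of all genes). MAPK3 had a mean of 8.17, and the feedback genes SPRY2 and DUSP6 had means of 9.07 and 6.99. NF-kappaB genes were above in 16 of 24 cases (66.7%). Among them were NFKB1 (8.67), RELA (8.66), REL (7.43), RELB (6.13) and the inhibitors NFKBIA (10.27) and TNFAIP3 (7.82). The call of REL was lost with the mean over its probe sets (5.71), a value near the limit of that setting. Of 41 WNT, NOTCH and hedgehog genes, 16 were above, with CTNNB1 (11.82), NOTCH1 (8.07) and FZD6 (6.37) above and SMO (5.41) within the range. At the 99th percentile, 10 of the 41 were above.

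Antigen presentation genes were above in 25 of 27 cases, with B2M at 13.75, HLA-B at 12.67, HLA-DRA at 12.21, CD74 at 11.42 and CIITA, the switch of class II genes, at 7.93. The call of CIITA was lost with the mean over its probe sets (5.62), a value near the limit of that setting. HLA genes resemble each other, so their probe sets can share signal. Of 18 BCL2 family genes, 12 were above (66.7%, beside 55.1% of all genes). BCL2 read 11.34, 11.36, 11.26 and 11.09 and MCL1 had a mean of 10.80, and both protect cells from death. BCL2L1 (7.70) was above by 1 of 3 probe sets, and with their mean (5.45) its call was lost. BAX (8.71), BAK1 (6.96) and PMAIP1 (11.81), which promote death, were above. BCL2L11, the BIM gene, read 4.96, 5.19, 5.28 and 5.15, and BCL2A1 had a mean of 2.91, both within the range.

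Of 44 glucose transport and glycolysis genes, 28 were above (63.6%, beside 55.1% of all genes), with LDHB (13.60), LDHA (13.15), PGK1 (12.77), HK2 (10.73), HK1 (9.88), PFKM (9.83), PKM (9.11), SLC2A3 (7.91) and SLC2A1 (7.01) above and SLC2A4, the insulin-regulated glucose transporter (3.31), within the range. SLC2A1 rests on 1 of 2 probe sets, and with their mean (5.25) its call was lost. Of 46 amino acid genes, 35 were above (76.1%), with GLUL (12.27), SHMT2 (11.76), PHGDH (10.29), GLDC (9.56) and PSPH (8.55). ASNS, which makes asparagine, read 6.96, 7.23, 6.76 and 6.52. ASS1 read 11.86, 11.91, 10.50 and 10.18, higher on both arrays of day 1. Over its expressed members this list had a median SD of 0.24, beside 0.12 for all expressed genes.

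Of 42 lipid and cholesterol genes, 31 were above (73.8%), with SCD (11.15), ACACA (9.13), CPT1A (8.34) and FASN (8.15). The call of CPT1A was lost with the mean over its probe sets (5.63), a value near the limit of that setting. CD36 (3.83) was within the range and ABCA1 (5.76) intermediate. The median SD of the expressed members was 0.23. Genes that act on or are targets of leukemia drugs were above in 33 of 43 cases, with TYMS (13.07), TOP2A (12.34), DCK (11.93), NT5C2 (10.70), ABCC1 (8.69), FPGS (8.41), SLC19A1, the methotrexate carrier (8.29) and TPMT, which inactivates thiopurines (6.58). TPMT rests on a probe set whose name marks possible cross-hybridization, and without such probe sets it had a level of 5.57 and was no longer above the range.

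Proliferation genes were above in 34 of 41 cases. PCNA (12.63), MYC (12.11), CCND3 (11.84), MCM2 (11.72), CCNB1 (10.83), MKI67 (10.55) and CDK6 (8.48) were above. The 7 within the range included the cyclins CCND1 (3.88) and CCND2 (3.67) and the inhibitors CDKN2A (4.94) and CDKN2B, named after their values were seen. A level within the range does not tell a lost gene from a silent one, or from an expressed gene that its probe set misses. Probe sets of PAX5 had means of 4.76 and 12.70, and those of AFF1 included 5.04 and 11.68.

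How far this baseline held after dexamethasone was compared with limma over all 14 arrays, without the run in the model. Cells cultured as long without the drug were not measured, so time in culture and drug cannot be told apart. At 8 h, 1045 of 11963 genes (8.74%) were higher and 1291 (10.8%) lower, and at 24 h 2369 (19.8%) and 2467 (20.6%), so 19.5% and 40.4% of genes were called in all. With the run as a replicate block, 3282 genes were called at 8 h and 5576 at 24 h. The 2 comparisons share the untreated arrays. Of 4967 genes within the range in untreated cells, 43 were above the limit on all arrays at 8 h and 86 at 24 h. Of the 6594 above, 36 and 102 were within it on all treated arrays.

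Of the 6 markers, 1 was higher at 8 h, and 4 were higher and 1 lower at 24 h. FLT3 was higher at 8 h by 0.58 (SE 0.10, adjusted p = 5.81e-04 from limma) and at 24 h by 0.98 (SE 0.10, adjusted p = 6.46e-07), with no overlap between untreated and treated arrays, as was so for 18.2% of all genes at 8 h and 35.5% at 24 h. MEIS1 (0.66) and CD79A (0.56) rose at 24 h (adjusted p = 1.40e-04 and 2.90e-04), while IGLL1 fell by 0.58 (adjusted p = 1.20e-04). VPREB1 was higher at 24 h by 0.15 (SE 0.06, adjusted p = 0.0378), but the call was lost without untreated array 3 or 4 or without 24 h array 1, 2, 4 or 5 (adjusted p between 0.0535 and 0.133). PAX5 was not called at 8 h (−0.08) or at 24 h (−0.04). With the run as a replicate block, 3 more markers passed at 8 h, IGLL1 (−0.27, adjusted p = 0.00281), MEIS1 (0.26, adjusted p = 0.00354) and VPREB1 (−0.15, adjusted p = 0.0465).

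Among key genes of the lists, 6 crossed the background limit on all arrays at both times. FKBP5, 4.84 to 5.29 in untreated cells, read 7.05 to 8.28 at 8 h and 7.65 to 8.21 at 24 h. IL1R2, a decoy receptor for IL-1 that lay between 3.27 and 3.57 in untreated cells, read 6.37 to 7.15 at 8 h and 8.43 to 8.86 at 24 h. BCL2L11 read 6.18 to 6.48 and then 6.55 to 7.20. The crossing that picked these genes leaves little room for overlap, so the separation of their arrays adds nothing to it.

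In the other direction, BLNK, 6.66 to 7.57 in untreated cells, read 4.60 to 5.62 at 8 h and 4.23 to 5.53 at 24 h. CEBPA, with log2 fold changes of −0.63 at 8 h and −0.58 at 24 h, and PDGFRB, with −0.71 and −0.69, began from levels just past the limit. These genes too were picked by the crossing, so their changes are given with no test. GATA3 crossed at 24 h, to 5.73 to 5.83.

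**Figure D5:**
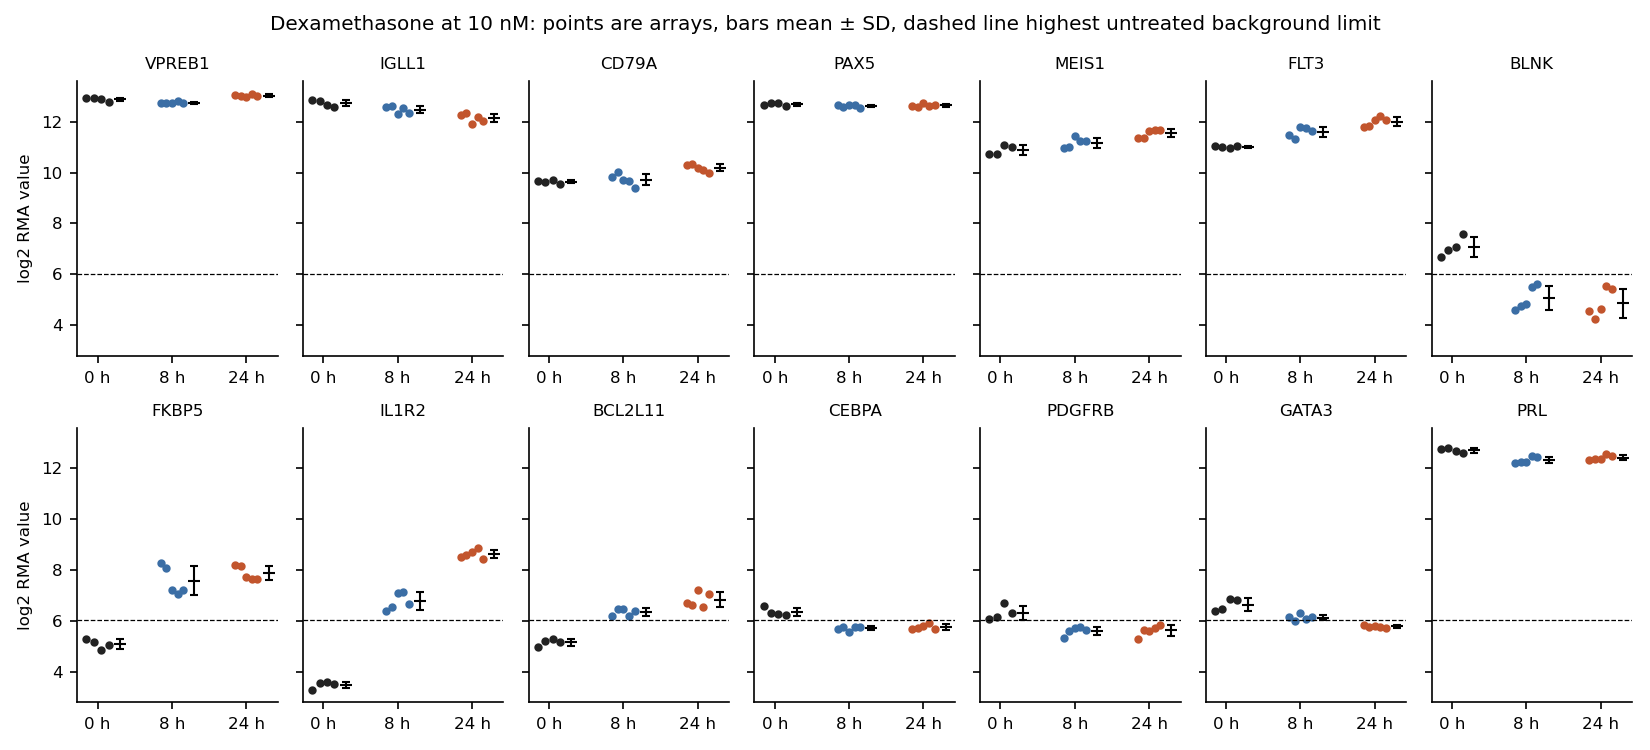
Points are single arrays of untreated cells (0 h, 4 arrays) and of cells after 8 h and 24 h of dexamethasone (5 arrays each), with log2 values on the vertical axis, bars for mean ± SD and a dashed line at the highest limit of the untreated arrays. FKBP5, IL1R2 and BCL2L11 pass from below to above the line, BLNK, CEBPA, PDGFRB and GATA3 from above to below it, and PAX5 stays between 12.54 and 12.75.

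By list, counts of called genes are read against the shares over all genes, 8.74% higher and 10.8% lower at 8 h and 19.8% and 20.6% at 24 h. Of 41 proliferation genes, 3 were higher and 12 lower at 8 h and 3 and 23 at 24 h, with a median of −0.40 at 24 h against −0.02 for all genes. Of 46 amino acid genes, 3 were higher and 21 lower at 8 h and 9 and 24 at 24 h, with medians of −0.28 and −0.39. Of 40 B-lineage surface genes, 5 were higher and 7 lower at 8 h and 18 and 8 at 24 h, and the median at 24 h was 0.12. Of 24 JAK, STAT and SOCS genes, 12 were higher and 2 lower at 24 h, with a median of 0.22. Of 34 housekeeping genes, 5 were higher and 16 lower at 24 h, with a median of −0.07. The counts of the B-lineage surface list at 8 h, and those of 41 monocyte and granulocyte genes at 24 h, 6 higher and 7 lower, were near or below the shares over all genes.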

How the data were processed

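Total RNA of RS4;11 cells was measured on 14 arrays with Affymetrix probe sets (4 untreated, 5 at 8 h, 5 at 24 h of dexamethasone at 10 nM). RMA, from affy (no version is given in the sources used here), was the method by which the authors corrected background and normalized, and they deposited log2 values. Their methods left out 1 untreated array. RMA makes arrays alike in distribution and compresses low values. The number of arrays limits the precision. Groups, replicates, runs and days came from the sample labels.

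Probe sets were named through GEO's platform annotation: 19070 have 1 gene, 1043 several and 2164 none listed. The probe set with the highest mean over untreated arrays gave a gene's level. Of genes with over 1 probe set (4310), 1338 had probe sets both above and not above the limit, and 508 genes above the range rest on a probe set marked _x_at, which can bind other transcripts. Of the reference list of 171 genes of other organs, 149 had a probe set. Comparisons used limma 3.58.1 (lmFit and eBayes, R 4.3.3) over all 14 arrays without a block, with Benjamini-Hochberg adjustment over 11963 genes and a threshold of 0.05, and were tested on simulated data. Residuals of arrays of the same run correlated in all 13 pairs (r from 0.293 to 0.531), and the labels give the runs. The main comparisons leave this pairing out, and counts with the run as a block are given beside them. Runs 1 and 2 share a day, and arrays of different runs were not compared in this way. These correlations therefore do not tell run from day. Untreated arrays 1 and 2, of different runs on the same day, had no gene over 1 log2 apart. Arrays 3 and 4, of different runs and days, had 8. The shares of run and day were not tested.

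The members, the 34 gene lists and the tests were chosen with earlier results of these data known, and the lists were described, not tested. Named genes were the 20 with the highest mean, the key genes of each list, the 10 expressed genes with the largest SD, members of lists with 5 or fewer genes above or within the range, and for dexamethasone the key genes, of which only the 6 markers and those that crossed the limit are printed. SPI1, TWIST1, CCND1, CCND2, CDKN2A, CDKN2B and other members named singly lie outside this rule. The comparison of days on treated arrays, the arrays of each day alone, and the reference without PRL and NRL were added after seeing the data. Other settings tried were limits at the 90th and 99th percentiles, the mean over probe sets, no _x_at probe sets, cyclic loess, a variance filter with the mean per gene, the day in place of the run, the run as a block, and each array left out. Promoter windows came from RefSeq (GRCh38.p14), and all 6 markers matched by symbol. Levels were computed with Python 3.11.15 and pandas 2.3.3, and figures drawn with matplotlib 3.10.9.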

Additional observations from a re-analysis of the deposited data

Results flagged for a closer look

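Of 241 genes named or covered by the naming rule, 12 had 1 untreated array far from the other 3 by Dixon's criterion, and chance alone marks about 1 gene in 20. The distant array was array 4 for BHLHE41 (6.72), CCNB1 (11.14), CD24 (12.27), DNTT (7.29), HOXC4 (8.85), IGHM (10.65), LYZ (5.14) and RPS15A (14.12). It was array 3 for ABCC1 (8.84), HOXB2 (3.40) and TSC2 (6.94), and array 1 for GNLY (4.40).

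Of the 13 genes compared with dexamethasone, 8 differed between 24 h and 8 h at an adjusted p below 0.05 in limma. The share over all genes was not counted for this comparison, so the count is a description and cannot be set against it. The difference, 24 h minus 8 h, was 0.28 for VPREB1, −0.33 for IGLL1, 0.46 for CD79A, 0.37 for MEIS1, 0.40 for FLT3, 1.85 for IL1R2, 0.48 for BCL2L11 and −0.35 for GATA3. GATA3 was picked because it crossed the limit at 24 h alone, so its difference is a description.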

How the results depend on the processing

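The count of genes above the background range was 6594, and under the other limits and level rules it ran from 5533 (limit at the 99th percentile) to 7097 (90th percentile). It was 6618 to 6643 with 1 untreated array left out, 6719 for the arrays of day 1 alone and 6703 without PRL and NRL in the reference. Of 34 lists, 9 moved by over 1.5 times under some limit or level rule. At the 90th percentile the counts above were 6 for stem and progenitor genes, 2 for chemokine receptors, 14 for receptor tyrosine kinases and 13 for the other-organ reference. At the 99th percentile they were 3 for monocyte and granulocyte, 4 for T and NK cell, 1 for erythroid and platelet, 5 for receptor tyrosine kinases, 8 for nuclear receptors, 10 for WNT, NOTCH and hedgehog and 2 for the reference. With the mean over probe sets, 5 stem and progenitor genes were above. Moving the limit changes these counts by construction. Of 210 key genes, 36 changed sides of the limit under some alternative.

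The run effect was called for 2346 of 6794 genes after the variance filter and for 2751 with the day in place of the run. For 8 h against untreated, the run as a replicate block gave 3282 called genes in place of 2336, and for 24 h 5576 in place of 4836. With 1 array left out, the counts ran from 1928 to 2344 and from 4472 to 4874. Beside the VPREB1, IGLL1 and MEIS1 calls given above, no alternative run changed a call of the 13 genes.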
